A study of Mus musculus with 6 samples.

Results

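A set of 7 genes of secreted growth factors and cytokines that act on myeloid cells was followed in mouse 4T1 carcinoma cells: Csf1, Il34, Csf2, Csf3, Kitl, Il1a and Il33. They were selected by gene symbol, and all 7 were found among the 24346 symbols of the deposited tables. The set was put together with the values of these genes in the libraries already known. Their levels and differences are therefore given as a description, with no test. The study measured RNA of 6 libraries in 3 groups of 2. The cells named shRNA3 and shRNA1 each received a different hairpin directed at AU021063, a long noncoding RNA, while the WT cells had been mock transfected. All groups are the same line, 4T1, which was established from a mouse mammary tumour and spreads to distant organs after grafting. The labels name no non-targeting hairpin. They give no culture of origin for the libraries of a group, and the p-values below thus reflect spread among libraries that may be technical copies. AU021063 itself was at 0.785 and 0 FPKM with shRNA3, 1.04 and 0.572 with shRNA1, and 1.82 and 1.67 in WT.

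Colony-stimulating factors are secreted proteins that drive the production, survival and activation of granulocytes and macrophages. Csf1 (M-CSF) and Il34 both bind the macrophage receptor Csf1r, Csf2 (GM-CSF) binds a receptor of the chains Csf2ra and Csf2rb, and Csf3 (G-CSF) binds Csf3r on neutrophils and their precursors. Kitl (stem cell factor) is the ligand of Kit on blood stem cells and mast cells. Il1a and Il33 are members of the interleukin-1 family that are held in the cell and act as alarm signals when released, through Il1r1 and Il1rl1 with the shared chain Il1rap. Mice bearing 4T1 tumours are known for a strong rise of circulating granulocytes, and G-CSF made by the tumour is a known part of it.

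Values were taken as FPKM, fragments scaled to transcript length and to the mapped total, although the deposited values name no unit. Comparisons of levels between genes rest on that assumption. The libraries summed to between 560862 and 604022 FPKM, and ratios of low values put their depths between 86.8% and 105% of that of WT replicate 1. Of 10 epithelial markers 7 averaged at least 1 FPKM, and the sum of the list was 777 to 780 FPKM with shRNA3, 1069 to 1141 with shRNA1 and 953 to 989 in WT, most of it from the keratins Krt8 and Krt18. Krt8 averaged 265 FPKM with shRNA3, 466 with shRNA1 and 428 in WT, while Krt19 averaged 12.8 FPKM with shRNA3, 20.1 with shRNA1 and 1.56 in WT. Epcam, Cldn3 and Cdh1 also had higher means with both hairpins than in WT. Of 10 myeloid markers 8 stayed under 0.5 FPKM in every library, with Ptprc, Itgam, Tyrobp and Spi1 listed at 0 throughout. The sum of the myeloid list was 41.6 to 44.2 FPKM with shRNA3, 40.1 to 44.9 with shRNA1 and 26.2 to 29.4 in WT, and came almost wholly from Cd68 and Cd14, which differed from WT in opposite directions with shRNA3. Cd68 averaged 27.8 FPKM with shRNA3, 17.3 with shRNA1 and 6.59 in WT, and Cd14 averaged 14.9 FPKM with shRNA3, 25.3 with shRNA1 and 21.0 in WT. The fibroblast list summed to 106 to 108 FPKM with shRNA3, 96.8 to 98.3 with shRNA1 and 80.5 to 81.8 in WT, led by Pdgfra, Dcn and Pdgfrb, with Thy1 and Col3a1 at 0. Dcn averaged 45.3 FPKM with shRNA3, 35.9 with shRNA1 and 10.7 in WT, and Pdgfra averaged 38.8 FPKM with shRNA3, 41.8 with shRNA1 and 49.9 in WT. Endothelial markers stayed under 0.5 FPKM, 6 of 8 lymphoid markers were at 0 throughout, and all 8 mast cell and erythroid markers were at 0. In the lymphoid list 1 marker averaged at least 1 FPKM. The sum of that list was 1.90 to 2.38 FPKM with shRNA3, 1.93 to 2.57 with shRNA1 and 2.92 to 4.49 in WT. The part of these lists in the results below was not tested.

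The 7 genes lay on different sides of WT, and the widest differences were those of shRNA3. The order of Csf3 and Csf1 differed between groups: Csf3 was the most abundant of the 7 in all shRNA1 and WT libraries, and Csf1 in both shRNA3 libraries. The ratio of Csf1 to Csf3 was 3.19 and 3.24 with shRNA3, 0.421 and 0.422 with shRNA1, and 0.623 and 0.635 in WT. Csf3 made up 17.4% and 17.2% of the summed FPKM of the 7 genes with shRNA3, 59.5% and 58.7% with shRNA1, and 48.8% and 49.3% in WT. Below these 2 genes the order was the same in every library: Kitl, Il33, Il34, Csf2 and Il1a. With shRNA1 the ranges of Kitl and Il33 overlapped, so their order there is within the spread. All other neighbours in the order were separated in each group.

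With shRNA3 against WT the libraries did not overlap for 6 of the 7 genes, 3 above WT (Csf1, Kitl, Il33) and 3 below it (Csf2, Csf3, Il1a). Among all 11079 genes that averaged 1 FPKM or more, 78.7% did not overlap in that comparison, with 38.6% above and 40.1% below. With shRNA1 against WT 3 were above (Csf1, Csf3, Il33) and 1 below (Csf2), beside 69.0% of all genes not overlapping, 32.2% above and 36.8% below. Between the hairpins, shRNA3 was above shRNA1 for Csf1 and Kitl and below it for Csf2, Csf3, Il1a and Il33, beside 73.2% of all genes, 37.4% above and 35.8% below. Both comparisons with WT share the WT libraries, so their differences are not independent of each other. Since these values were known when the genes were chosen, nothing is read from the counts.

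**Figure D1:**
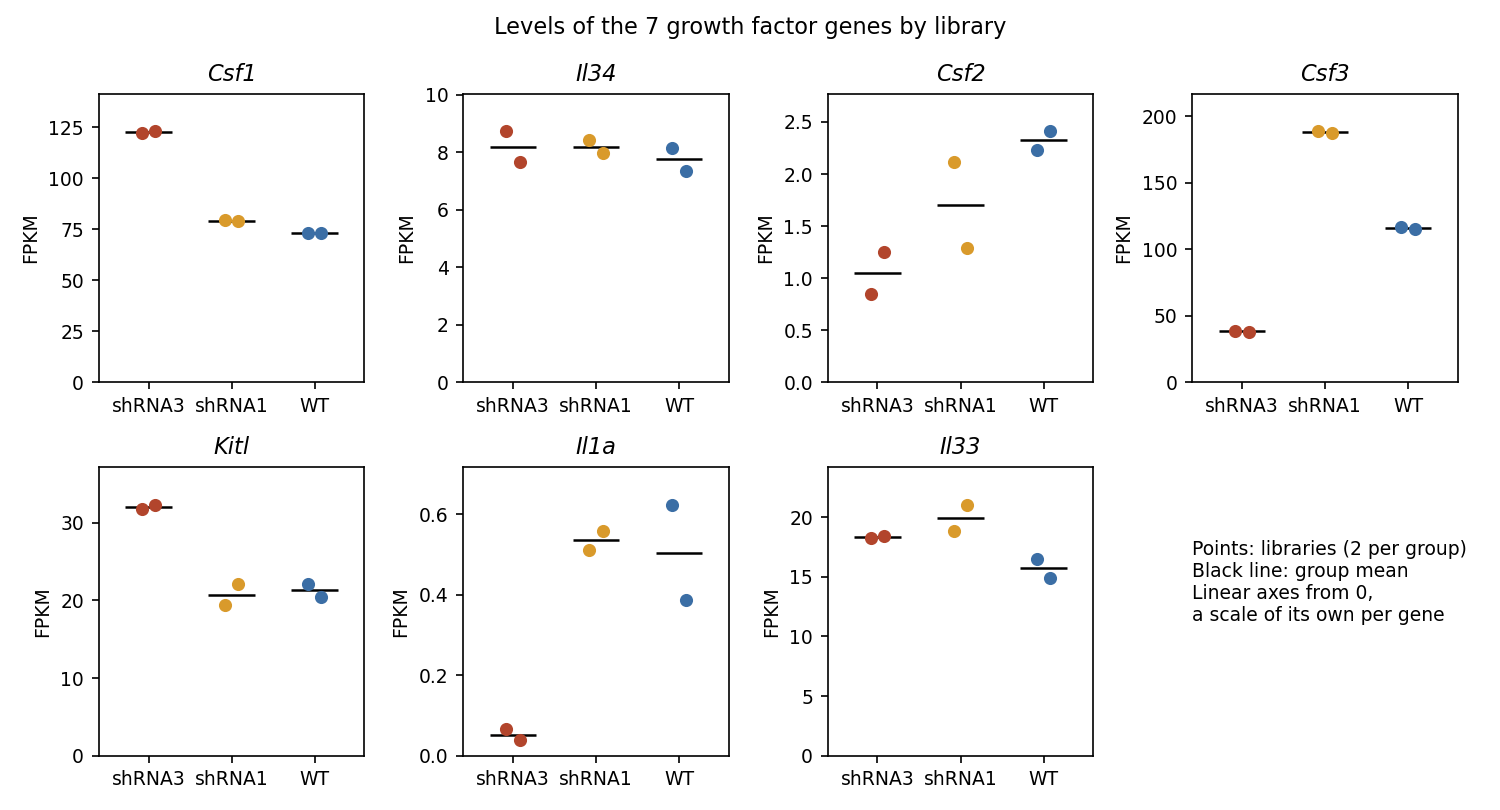
Level of each of the 7 genes (y axis, FPKM, linear and starting at 0, with its own scale for each gene) in every library, by group on the x axis. Points are libraries and black lines are group means of n = 2. Csf3 sits near 38 FPKM with shRNA3 and above 187 with shRNA1, on either side of WT, and Il34 overlaps in all groups.

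Csf3 (G-CSF; ENSMUSG00000038067.2, chromosome 11, 98701263 to 98703629, plus strand, GRCm38, the assembly also called mm10) showed the largest differences of the set on the log2(FPKM + 1) scale. It was at 38.4 and 37.9 FPKM with shRNA3, 189 and 187 with shRNA1, and 117 and 115 in WT. The groups were far apart compared with the spread within them. The mean was 38.2 ± 0.319 FPKM with shRNA3 (SD, n = 2 libraries, as for all means ± SD here), 188 ± 0.926 with shRNA1 and 116 ± 1.21 in WT. It was therefore 3.05-fold lower with shRNA3 than in WT, 1.62-fold higher with shRNA1 than in WT, and 4.93-fold lower with shRNA3 than with shRNA1. On the log2(FPKM + 1) scale, which understates changes of low genes, these differences were -1.58, 0.69 and -2.27. Both hairpins target the same RNA, and their Csf3 levels lay on opposite sides of WT. In bulk RNA, a lower level can come from fewer cells that express a gene or from less RNA in each cell, and these cannot be told apart.

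Csf1 (M-CSF; ENSMUSG00000014599.10, chromosome 3, 107741048 to 107760469, minus strand) was at 122 and 123 FPKM with shRNA3, 79.4 and 79.1 with shRNA1, and 72.9 and 73.3 in WT. Both hairpin groups lay above WT, shRNA3 by far the more. Its mean was 123 ± 0.581 FPKM with shRNA3, 79.3 ± 0.270 with shRNA1 and 73.1 ± 0.271 in WT, or 1.68-fold and 1.08-fold the WT mean. The log2 differences from WT were 0.74 for shRNA3 and 0.12 for shRNA1. With libraries rescaled to equal totals they were 0.67 and 0.06.

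Il34, the other ligand of Csf1r (ENSMUSG00000031750.15, chromosome 8, 110741829 to 110805924, minus strand), was at 8.74 and 7.65 FPKM with shRNA3, 8.42 and 7.96 with shRNA1, and 8.17 and 7.37 in WT. The 3 groups overlapped, and its means differed by less than the SD of the shRNA3 libraries and that of the WT libraries. Csf1 exceeded Il34 by 14.0-fold and 16.1-fold in the shRNA3 libraries, by 9.43-fold and 9.93-fold in the shRNA1 libraries, and by 8.93-fold and 9.95-fold in the WT libraries. The exons of Il34 share 22 bases with the antisense gene Gm15894 and 75 with the antisense gene Gm15895. Neither is among the deposited symbols, and the strand setting of quantification is not known.

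Csf2 (GM-CSF; ENSMUSG00000018916.5, chromosome 11, 54247271 to 54249667, minus strand) was a low gene. It was at 0.848 and 1.25 FPKM with shRNA3, 2.12 and 1.29 with shRNA1, and 2.23 and 2.41 in WT. The shRNA3 libraries were the lowest, the WT libraries the highest, and the shRNA1 libraries lay between them and far apart. Divided by the FPKM worth of a single fragment, the values came within 0.0202 of whole numbers, giving 12 and 15 fragments with shRNA3, 27 and 15 with shRNA1, and 30 and 32 in WT. After correction for relative depth, the rate with shRNA3 was 44.4% of that in WT (95% exact binomial interval 27.2% to 70.9%). With shRNA1 it was 74.1% of WT (48.9% to 111%). These intervals pool the libraries of a group, cover counting error only and are no test. The log2 difference from WT was -0.70 for shRNA3 (-1.10 with a pseudocount of 0.1) and -0.31 for shRNA1, which was -0.54 without shRNA1 replicate 1 and -0.09 without shRNA1 replicate 2. The exons of Csf2 share 96 bases with an antisense gene, Gm12223, and the sources used here do not state whether quantification used strand.

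Kitl (stem cell factor; ENSMUSG00000019966.18, chromosome 10, 100015630 to 100100416, plus strand) was at 31.8 and 32.3 FPKM with shRNA3, 19.4 and 22.1 with shRNA1, and 22.1 and 20.4 in WT. The shRNA3 libraries stood alone at the top, and the shRNA1 and WT libraries overlapped. The mean was 32.0 ± 0.407 FPKM with shRNA3, 20.7 ± 1.90 with shRNA1 and 21.3 ± 1.21 in WT. That with shRNA3 was 1.51-fold the WT mean, with a log2 difference of 0.57.

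The interleukin-1 family genes differed from each other. Il1a (ENSMUSG00000027399.1, chromosome 2, 129299610 to 129309972, minus strand) was at 0.066 and 0.039 FPKM with shRNA3, 0.511 and 0.559 with shRNA1, and 0.624 and 0.386 in WT. It was near 0 with shRNA3, and shRNA1 overlapped WT. Divided in the same way, the values came within 0.0133 of whole numbers, giving 2 and 1 fragments with shRNA3, 14 and 14 with shRNA1, and 18 and 11 in WT. The rate with shRNA3 was 10.6% of that in WT (95% exact binomial interval 2.06% to 34.1%), and with shRNA1 it was 106% of WT (60.5% to 184%). These intervals too pool the libraries of a group and cover counting error only, and that of shRNA3 rests on 3 fragments. Il1a averaged 0.364 FPKM and was the only one of the 7 under the filter of 1 FPKM. Its exons share 222 bases with Gm14023 on the opposite strand, which was listed at no more than 0.179 FPKM in any library.

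Il33 (ENSMUSG00000024810.16, chromosome 19, 29925114 to 29960718, plus strand) was at 18.3 and 18.5 FPKM with shRNA3, 18.9 and 21.1 with shRNA1, and 16.5 and 14.9 in WT. All hairpin libraries lay above both WT libraries, by a small amount. The means were 1.17-fold the WT mean with shRNA3 and 1.27-fold with shRNA1, with log2 differences of 0.21 and 0.33.

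**Figure D2:**
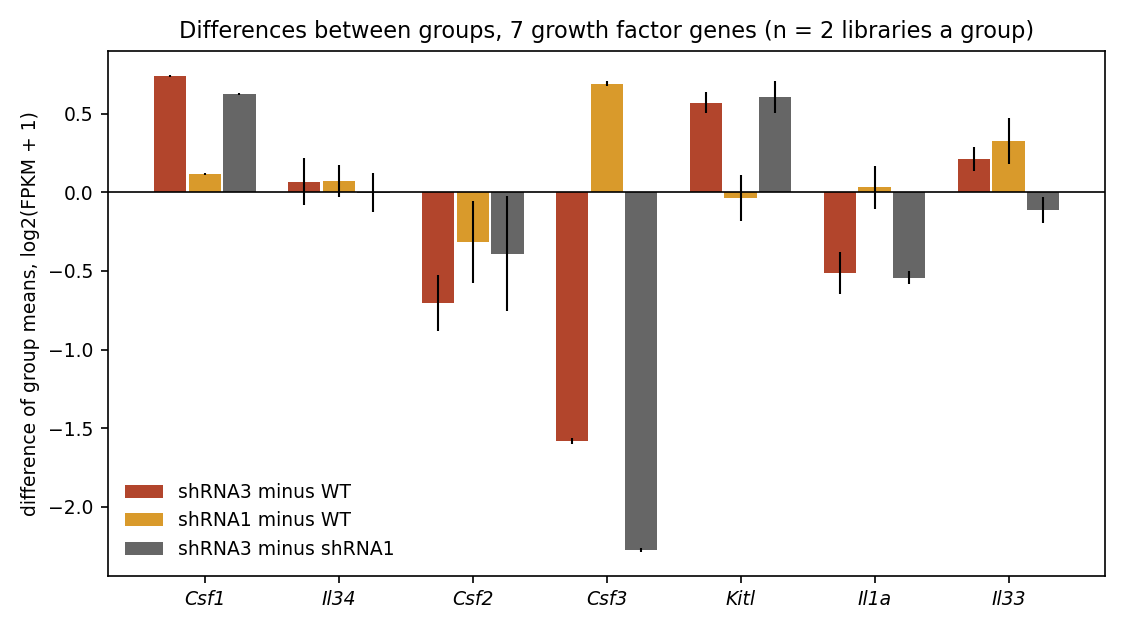
Differences between group means for the 7 genes on the log2(FPKM + 1) scale (y axis), for shRNA3 minus WT, shRNA1 minus WT and shRNA3 minus shRNA1. Black lines span the lowest to the highest of the 4 differences between single libraries of the groups compared. Csf3 differs from WT in opposite directions with the hairpins, and Csf1 and Kitl are higher mainly with shRNA3.

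Cytokine transcripts are often short-lived because their 3′ untranslated regions hold AU-rich elements, runs built on ATTTA that are bound by proteins such as Zfp36. The series title places AU021063 under IL-6 and Arid5a, an RNA-binding protein that stabilises some cytokine transcripts. The AU-rich elements were counted, overlapping ones included, on the sense strand of the 3′ untranslated regions. The longest complete coding transcript of each gene in GENCODE release M21 was used. Whether Arid5a binds these elements was not tested. All 7 genes held at least 1 ATTTA, as did 64.7% of 20870 coding genes. The longer TTATTTATT was present in Csf2 alone, against 7.57% of all genes. Csf2 held 9 ATTTA in 317 bases, or 28.4 per kilobase, and 4 overlapping TTATTTATT. Csf3 held 6 in 669 bases (8.97 per kilobase), Kitl 14 in 4435 (3.16), Il1a 3 in 1101 (2.73), Csf1 4 in 2111 (1.90), Il33 3 in 1663 (1.80) and Il34 1 in 605 (1.65). The 30-base windows with the most ATTTA are shown for the 4 genes with the clearest differences under shRNA3 and for Csf2, to set the sequences beside the levels. They are written 5′ to 3′ in the sense of the gene, as DNA, with ATTTA in capitals.
Csf2, chr11:54247323-54247352, minus strand: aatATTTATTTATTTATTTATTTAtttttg
Csf3, chr11:98702984-98703013, plus strand: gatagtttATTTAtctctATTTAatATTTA
Il1a, chr2:129300109-129300138, minus strand: attttatctatgtATTTAtaaatatATTTA
Csf1, chr3:107741102-107741131, minus strand: aaggtcATTTAaatatctATTTAaaaaata
Kitl, chr10:100097942-100097971, plus strand: ttgtgacttgATTTATTTAtctggtagttt
The 3 genes that were lower with shRNA3 held more ATTTA per kilobase than Csf1, Il33 and Il34, and Kitl, which was higher, held more than Il1a. With shRNA1, Csf3 lay above WT, Il1a overlapped it and Csf2 lay below it, so the same grouping does not hold there. Over 7 genes the comparison is a description of the sequences.

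Promoters were read from RefSeq windows on GRCm38.p6 for 5 of the 7 genes, as 250 bases before the start site. They were searched on both strands for the kappa-B consensus and for 4 other motifs. The AP-1 motif was spelled TGANTCA. The TATA motif was spelled TATAAA. The core of hypoxia elements was spelled ACGTG. The ATF4 element was spelled TGATGNAA. Of all 32851 windows, 3.90% held the kappa-B consensus, 6.75% the AP-1 motif, 12.4% the TATA motif, 16.6% the hypoxia core and 3.45% the ATF4 element. Csf1 held a kappa-B match, and Il1a held an AP-1 and a TATA match. Kitl held a TATA match, as did both windows of Il33, and Csf2 held none of the 5 motifs. The RefSeq start site of Csf2 lies 232 bases upstream of the GENCODE start, so the bases searched do not reach the GENCODE start. The RefSeq start site of Kitl lies 191 bases downstream of the GENCODE start. The bases searched for Kitl thus span that start, and its TATA match lies inside the GENCODE gene. The hypoxia core and the ATF4 element were in no window of these genes. The 180 bases before the start are shown for the higher Csf1 and the lower Il1a, with matches in capitals. A match is a description of the letters and not evidence of binding.
Csf1, chr3:107760470-107760649, minus strand: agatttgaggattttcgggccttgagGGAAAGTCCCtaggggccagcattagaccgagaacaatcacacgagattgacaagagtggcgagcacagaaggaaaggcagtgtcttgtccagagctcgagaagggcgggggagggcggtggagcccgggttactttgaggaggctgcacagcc
Il1a, chr2:129309973-129310152, minus strand: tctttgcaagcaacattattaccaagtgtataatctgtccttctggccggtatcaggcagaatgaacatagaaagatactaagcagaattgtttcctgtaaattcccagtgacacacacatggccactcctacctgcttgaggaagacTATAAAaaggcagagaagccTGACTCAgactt

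Genes around these factors were then compared with limma across all 11079 genes, with Benjamini-Hochberg adjustment and a threshold of 0.05. Of all genes, 55.2% were called for shRNA3 against WT, 36.0% for shRNA1 against WT and 42.5% between the hairpins. The 6 lists were: receptors, release and inhibitors, JAK-STAT and RAS signalling, IL-1 receptor signalling, proteins that bind AU-rich transcripts, and other cytokines acting on myeloid cells. The lists, like the 7 genes, were chosen with earlier results of these data known. Their shares and p-values, here and below, are therefore not independent of that choice. The lists held 107 genes, of which 74 passed the filter. With shRNA3 against WT 21 rose and 18 fell, or 28.4% and 24.3%, against 27.4% and 27.8% of all genes tested. With shRNA1 against WT 28 rose and 5 fell, or 37.8% and 6.76%, against 17.6% and 18.4% of all genes. The median log2 difference of the 74 was 0.02 for shRNA3 and 0.09 for shRNA1, beside -0.01 for all genes in both comparisons. Between the hairpins 10 were higher and 27 lower with shRNA3 than with shRNA1, or 13.5% and 36.5%, against 22.0% and 20.5% of all genes. With rescaling of the libraries to equal totals, 37.6% of all called genes were higher with shRNA3, against 49.7% on the deposited values, and 34.9% with shRNA1, against 49.0%. That rescaling gave 16 rises and 25 falls of the 74 with shRNA3 and 22 rises and 8 falls with shRNA1. Without shRNA1 replicate 2 the called genes of shRNA1 against WT were 2604 in place of 3989. Falls among all genes were 1305 without shRNA1 replicate 1, 1248 without shRNA1 replicate 2, 1313 without WT replicate 1 and 1280 without WT replicate 2, in place of 2035. The 5 falls of the lists with shRNA1 were 3 without shRNA1 replicate 1, shRNA1 replicate 2 or WT replicate 2. The 10 higher between the hairpins were 6 without shRNA1 replicate 2 or shRNA3 replicate 2. Genes of the lists named below beyond the rule for named genes were picked after their values were seen.

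The receptors of the colony-stimulating factors were nearly silent in these cells. Csf2ra, Kit and Ptprz1, a receptor of Il34, were listed at 0 in all libraries, and Csf1r, Csf2rb, Csf2rb2, Csf3r and Il1rl1 did not exceed 0.068 FPKM in any. The 3 receptor genes that passed the filter were Il1r1, Il1rap and Sdc1, a proteoglycan that also binds Il34. Il1r1 was at 18.9 and 20.3 FPKM with shRNA3, 26.1 and 27.7 with shRNA1, and 22.1 and 22.2 in WT. It fell with shRNA3 (log2 difference -0.17 ± 0.06 SE, limma adjusted p = 0.0357) and rose with shRNA1 (0.27 ± 0.06, adjusted p = 0.00853). The hairpins differed by -0.44 (limma adjusted p = 8.18e-04). The fall of Il1r1 ended with no filter (limma adjusted p = 0.0549) and without shRNA3 replicate 1 (0.186), WT replicate 1 (0.103) or WT replicate 2 (0.108), with a range of 0.0146 to 0.186 over all alternatives. Its rise ended without shRNA1 replicate 2 (limma adjusted p = 0.0577, range 0.00611 to 0.0577).

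Il1rap, the shared chain for IL-1 and IL-33, was at 21.1 and 21.8 FPKM with shRNA3, at 22.9 and 24.8 with shRNA1 and at 22.9 and 21.8 in WT, and passed the threshold in no comparison. Sdc1 was at 42.0 and 43.0 FPKM with shRNA3, 62.7 and 55.1 with shRNA1, and 50.7 and 51.8 in WT. It fell with shRNA3 (-0.26 ± 0.06, limma adjusted p = 0.00795). Its rise with shRNA1 (0.19 ± 0.06, limma adjusted p = 0.0430) ended under 10 of 15 alternatives, without shRNA1 replicate 1 (0.225), shRNA3 replicate 1 (0.0666), shRNA3 replicate 2 (0.0670), WT replicate 1 (0.153) or WT replicate 2 (0.102) among them, with a range of 0.0132 to 0.225. No receptor rose with shRNA3 and none fell with shRNA1 by limma, also at an unadjusted p under 0.05, where the counts were 0 and 0 of 3.

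Of 13 tested genes of release, maturation and inhibition, 4 rose and 2 fell with shRNA3, and 5 rose and 2 fell with shRNA1. The called shares with shRNA3 were 30.8% and 15.4%, against 27.4% and 27.8% of all genes. Those with shRNA1 were 38.5% and 15.4%, against 17.6% and 18.4% of all genes. Mmp9, a gelatinase that can release soluble Kitl, was at 205 and 211 FPKM with shRNA3, at 211 and 204 with shRNA1 and at 68.5 and 71.9 in WT. It rose 2.96-fold with each hairpin (limma adjusted p = 3.58e-07 for shRNA3 and 7.30e-07 for shRNA1). Adam17, the protease that sheds Csf1, averaged 48.8 ± 0.612 FPKM with shRNA3, 51.8 ± 2.42 with shRNA1 and 49.0 ± 0.668 in WT, and was not called. Adam10, a related protease, fell with shRNA1 to 44.8 ± 1.83 FPKM, against 67.1 ± 3.78 in WT (limma adjusted p = 2.59e-04). With shRNA3 it was at 62.5 ± 2.85 FPKM and was not called.

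S100a13, a calcium-binding protein involved in the release of Il1a, was at 19.1 and 20.0 FPKM with shRNA3, 25.5 and 26.4 with shRNA1, and 17.2 and 17.4 in WT. It rose with both hairpins (limma adjusted p = 0.0252 for shRNA3 and 1.68e-04 for shRNA1). The shRNA3 call ended with equal totals (0.210) and without shRNA3 replicate 2 (0.131), WT replicate 1 (0.0935) or WT replicate 2 (0.0706), with a limma range of 0.0177 to 0.210. Among the other called genes, the calpain Capn2, which can process Il1a, rose with both hairpins. Casp4 rose with shRNA3 and Capn1 with shRNA1, and Casp1 fell with both. The shRNA1 call of Casp1 ended without shRNA1 replicate 1 (limma adjusted p = 0.0644) or WT replicate 2 (0.0559), with a range of 0.00429 to 0.0644. Il1rn, the natural inhibitor of the IL-1 receptor, was listed at 0 in all libraries.

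Of 18 tested genes of JAK-STAT and RAS signalling, 9 rose and 4 fell with shRNA3. These were 50% and 22.2%, against 27.4% and 27.8% of all genes. With shRNA1 10 rose and 1 fell, or 55.6% and 5.56%, against 17.6% and 18.4% of all genes. The median log2 difference of the 18 was 0.13 for shRNA3 and 0.25 for shRNA1. With shRNA1, the rise of Stat5b ended under 10 of 15 alternatives, that of Stat5a under 8, and those of Tyk2 and Sh2b3 under 2. With shRNA3, the rises of Grb2 and Tyk2 ended under 4 alternatives each and that of Sh2b3 under 3. Stat3, a transcription factor downstream of the G-CSF and IL-6 receptors, rose with both by 0.37 and 0.35 (limma adjusted p = 1.77e-04 and 4.36e-04). Jak1, a kinase of the IL-6 receptor, fell with shRNA3 by 0.44 (limma adjusted p = 1.15e-04) and rose with shRNA1 by 0.29 (0.00195). Socs3, a feedback inhibitor of the G-CSF and IL-6 receptors, was at 70.1 and 72.2 FPKM with shRNA3, at 70.8 and 67.8 with shRNA1 and at 39.6 and 41.4 in WT. It rose 1.76-fold and 1.71-fold (limma adjusted p = 1.03e-05 and 2.03e-05). Socs2, a feedback inhibitor of STAT5 signalling, was at 3.69 and 2.64 FPKM with shRNA3, at 6.11 and 5.53 with shRNA1 and at 8.98 and 8.45 in WT. It fell with both (log2 differences -1.23 ± 0.12 and -0.51 ± 0.12, limma adjusted p = 1.06e-04 and 0.0129). The shRNA1 call of Socs2 ended with no filter (0.0510) and without shRNA1 replicate 2 (0.0747) or WT replicate 1 (0.0685), with a limma range of 0.00421 to 0.0747. Ptpn6, a phosphatase that dampens CSF receptors in blood cells, fell with shRNA3 to 8.14 and 9.25 FPKM, against 12.8 and 13.2 in WT (limma adjusted p = 0.00103). It was not called with shRNA1, at 13.6 ± 1.26 FPKM.

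Of 15 tested genes of IL-1 receptor signalling, 3 rose (Mapkapk2, Tab1, Tollip) and 4 fell (Irak1, Map3k7, Tab3, Traf6) with shRNA3. With shRNA1 2 rose (Mapk14, Mapkapk2) and 0 fell by limma, with 1 fall at an unadjusted p under 0.05. The called shares with shRNA3 were 20% and 26.7%, against 27.4% and 27.8% of all genes. Those with shRNA1 were 13.3% and 0%, against 17.6% and 18.4% of all genes. Mapkapk2, a kinase under p38 that stabilises AU-rich cytokine transcripts, averaged 180 ± 5.74 FPKM with shRNA3, 134 ± 1.12 with shRNA1 and 96.1 ± 0.150 in WT. It rose 1.87-fold and 1.39-fold (limma adjusted p = 2.97e-06 and 1.14e-04), and the hairpins differed by 0.43 on the log2 scale (1.95e-04). Irak1, a kinase next to the IL-1 receptor, fell with shRNA3 to 22.5 ± 1.38 FPKM, against 29.4 ± 1.35 in WT (limma adjusted p = 0.00117). Tab3, an adaptor of the kinase Map3k7, fell with shRNA3 to 3.30 ± 0.0304 FPKM, against 4.52 ± 0.225 in WT (limma adjusted p = 0.00866), and not without WT replicate 1 (0.0517, range 0.00475 to 0.0517). The calls of Tab1 and Traf6 with shRNA3 ended without WT replicate 1 (limma adjusted p = 0.0590, range 0.00482 to 0.0590) and without shRNA3 replicate 2 (0.0538, range 0.00403 to 0.0538).

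Among 12 proteins that bind AU-rich cytokine transcripts, 2 rose (Zfp36, Zfp36l1) and 3 fell (Hnrnpd, Tia1, Zfp36l2) with shRNA3. With shRNA1 3 rose (Zc3h12a, Zfp36, Zfp36l1) and 2 fell (Tia1, Zfp36l2). The called shares with shRNA3 were 16.7% and 25%, against 27.4% and 27.8% of all genes. Those with shRNA1 were 25% and 16.7%, against 17.6% and 18.4% of all genes. Zfp36 (tristetraprolin), which promotes decay of Csf2 and other AU-rich transcripts, averaged 23.2 ± 1.17 FPKM with shRNA3, 37.2 ± 3.55 with shRNA1 and 10.7 ± 0.446 in WT. It rose 2.17-fold with shRNA3 and 3.49-fold with shRNA1 (limma adjusted p = 2.31e-05 and 3.77e-06). Zfp36 was highest with shRNA1, as was Csf3. Hnrnpd (AUF1) fell with shRNA3 to 18.3 ± 0.518 FPKM, against 31.6 ± 0.923 in WT (limma adjusted p = 2.30e-05), and was at 33.5 ± 1.36 FPKM with shRNA1, not called. Zfp36l2, a relative of Zfp36, averaged 45.0 ± 0.657 FPKM with shRNA3, 66.4 ± 0.162 with shRNA1 and 74.3 ± 0.771 in WT, and fell with both (limma adjusted p = 9.47e-06 and 0.0185).

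The shRNA1 call of Zfp36l2 ended without shRNA1 replicate 1 (limma adjusted p = 0.0749), shRNA1 replicate 2 (0.0691), WT replicate 1 (0.0840) or WT replicate 2 (0.0561), with a range of 0.0090 to 0.0840. That of Zfp36l1 ended with equal totals (0.0947) and without shRNA1 replicate 1 (0.0743), shRNA1 replicate 2 (0.0534) or WT replicate 1 (0.0736), with a limma range of 0.0143 to 0.0947. That of Zc3h12a ended with no filter (0.0762), with equal totals (0.0894) and without shRNA1 replicate 1 (0.167), WT replicate 1 (0.140) or WT replicate 2 (0.0691), with a limma range of 0.0259 to 0.167. Arid5a was at 10.2 and 10.9 FPKM with shRNA3, 12.2 and 10.6 with shRNA1, and 11.6 and 12.5 in WT, and was not called.

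Of 13 other tested cytokines acting on myeloid cells, 3 rose (Angpt1, Il15, Vegfa) and 3 fell (Lif, Tgfb1, Tslp) with shRNA3. With shRNA1 6 rose and 0 fell by limma, with 1 fall at an unadjusted p under 0.05. The called shares with shRNA3 were 23.1% and 23.1%, against 27.4% and 27.8% of all genes. Those with shRNA1 were 46% and 0%, against 17.6% and 18.4% of all genes. Tslp, an epithelial cytokine that acts on dendritic cells and the most abundant cytokine of the list after Mif, was at 105 and 95.1 FPKM with shRNA3, at 199 and 207 with shRNA1 and at 227 and 211 in WT. It fell 2.19-fold with shRNA3 (limma adjusted p = 6.61e-06). Il15, a growth factor of natural killer cells, rose with shRNA3 to 6.38 ± 0.323 FPKM, against 2.25 ± 0.309 in WT (limma adjusted p = 5.15e-05), and was at 2.49 ± 0.145 FPKM with shRNA1. Lif, a cytokine of the IL-6 family, was at 7.01 and 6.52 FPKM with shRNA3, at 14.7 and 14.9 with shRNA1 and at 8.43 and 7.79 in WT. Like the Csf3 levels, those of Lif lay on opposite sides of WT: it fell with shRNA3 (limma adjusted p = 0.0204) and rose with shRNA1 (1.07e-04), and the hairpins differed (4.09e-05). Its shRNA3 call ended without shRNA3 replicate 2 (limma adjusted p = 0.107) or WT replicate 1 (0.117), with a range of 0.00691 to 0.117. The shRNA3 calls of Angpt1 and Tgfb1 did not hold either. For Angpt1 it ended with equal totals (limma adjusted p = 0.0559) and without shRNA3 replicate 2 (0.0560) or WT replicate 2 (0.0632, range 0.00646 to 0.0632). For Tgfb1 it ended with no filter (limma adjusted p = 0.0561) and without shRNA3 replicate 1 (0.161), WT replicate 1 (0.0795) or WT replicate 2 (0.0972), with a range of 0.00728 to 0.161.

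**Figure D3:**
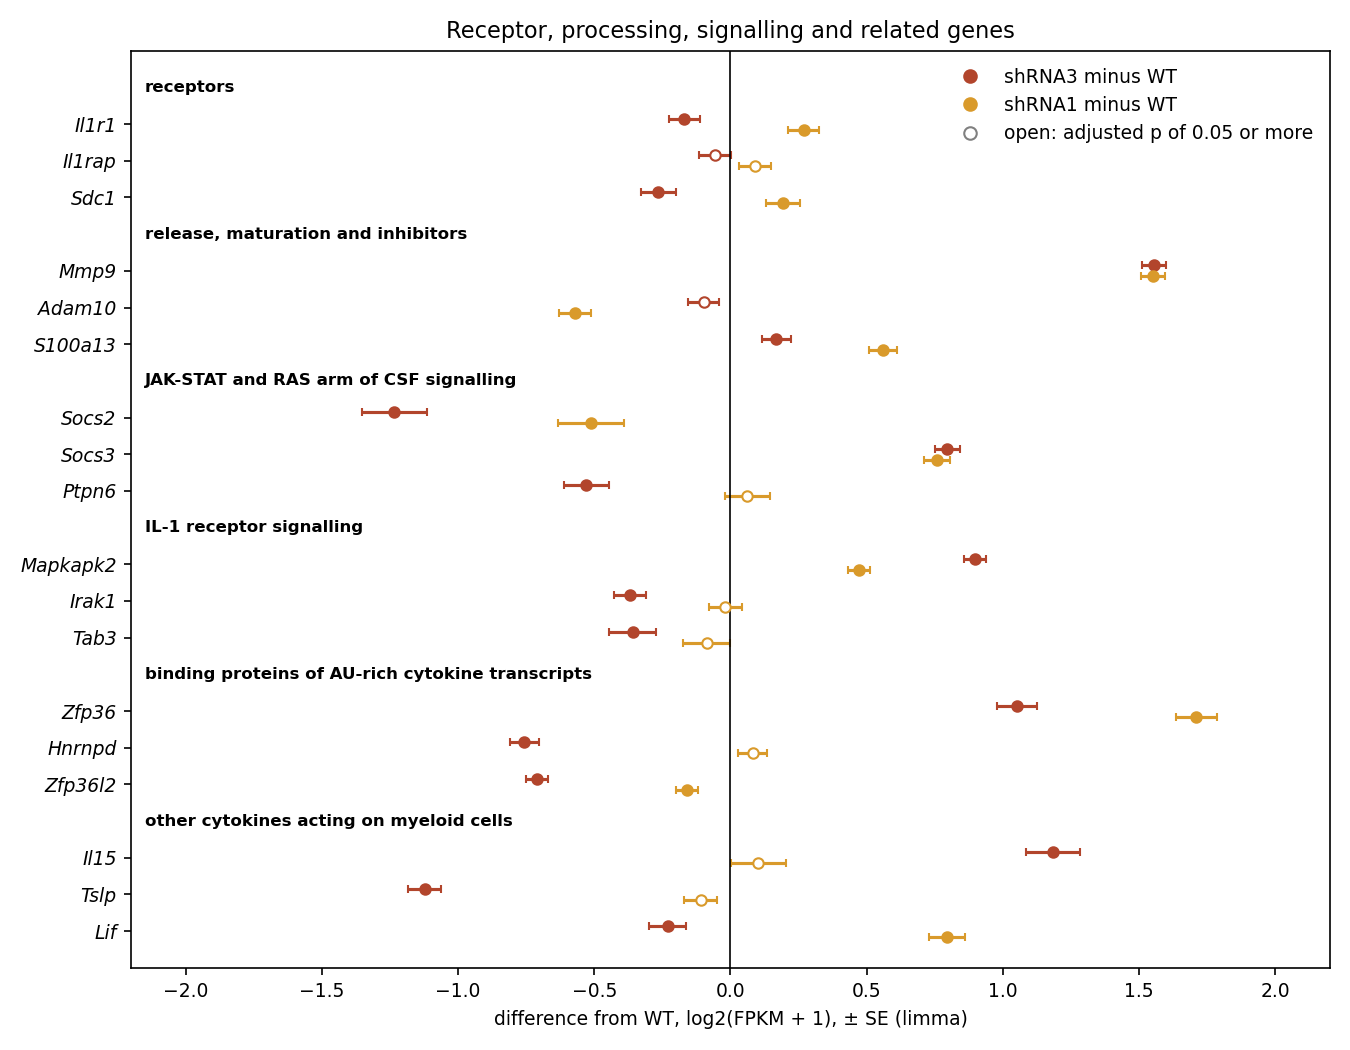
Difference from WT on the log2(FPKM + 1) scale (x axis), with its standard error from limma, for named genes of the 6 lists (y axis). Filled points passed an adjusted p of 0.05 and open points did not. Zfp36, Mmp9, Socs3 and Mapkapk2 are higher with both hairpins, and Tslp and Hnrnpd are lower with shRNA3.

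For the genes of the set whose group means spanned at least 0.5 on the log2 scale, the 3 tested genes with the nearest profile over the 6 libraries were taken. Nearness was the root mean square difference of log2(FPKM + 1) after centring each gene on its mean. The nearest to Csf3 were Mt2, a metallothionein, at 0.30, Mmp3, a matrix protease, at 0.34, and Emc8-1190005i06rik at 0.35. Mt2 was at 24.7 and 24.4 FPKM with shRNA3, at 176 and 182 with shRNA1 and at 123 and 124 in WT, an order of groups like that of Csf3. The nearest to Csf1 were Sord (0.02), Fam131a (0.03) and Arhgef17 (0.03). Those to Kitl were Ppargc1b (0.03), Mtm1 (0.03) and Rock2 (0.04), and those to Csf2 were Pigw, Pcbd2 and Ccl25 (0.07 to 0.10). The profile of Csf3 thus had no neighbour as near as those of Csf1 and Kitl, whose span was smaller. With 6 libraries and 11079 genes, near profiles are a description only.

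**Figure D4:**
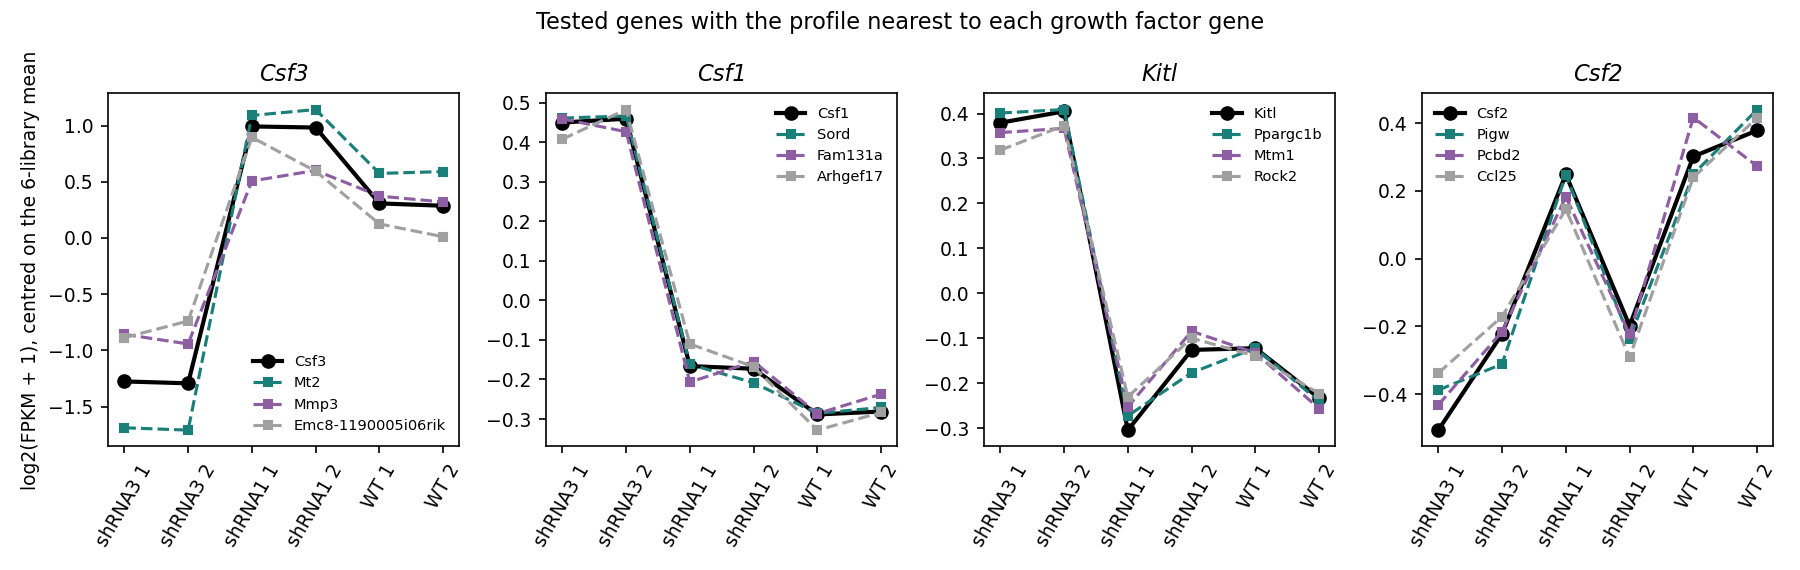
Level in each library on the log2(FPKM + 1) scale, centred on the 6-library mean (y axis), for Csf3, Csf1, Kitl and Csf2 (black) and for the 3 tested genes nearest to each (dashed), by library (x axis). Csf3, Mt2 and Mmp3 are lowest with shRNA3 and highest with shRNA1, and Csf1 and Kitl stand apart with shRNA3.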

How the data were processed

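Per the labels' protocols, 6 libraries were made from RNA of 4T1 cells with a stranded mRNA kit. The authors deposited 1 value per gene symbol and library. The tables do not name their unit, which was taken as FPKM, because Cufflinks 2.2.1 is listed in the submitters' processing notes, along with TopHat2 2.0.13, Bowtie2 2.2.3, SAMtools 0.1.19 and mm10. The sources used here give no annotation and no strand setting. FPKM are shares of a library, so abundant genes that rise push other values down.

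The 7 genes and all lists were chosen with earlier results of these data known. Groups were taken from sample titles. Values were transformed to log2(FPKM + 1), and the 11079 genes averaging 1 FPKM or more were fitted in 1 means model of 3 groups over all 6 libraries with limma 3.58.1 (R 4.3.3, trend in the prior variance, 3 residual and 4.96 prior degrees of freedom), two-sided, Benjamini-Hochberg adjusted over all genes. Of 107 listed genes, 104 were matched. Relative depth was read as the commonest quotient of low values (0.1 to 0.6 FPKM) of a pair of libraries. It gave fragment numbers where values were whole multiples within 0.1. The absolute depth is not known. Named genes were the 7, the receptors, and in each other list up to 3 called genes with the largest change from WT or, with none called, up to 2 of highest level. For genes of the set with a span of at least 0.5, the 3 nearest genes were added. Of the lists, 1 gene is counted in the totals and its result is not reported here. The fit was run on simulated data with independent noise between libraries and few changed genes. That setting differs from the data, so it gives no error rate for the calls here. Alternatives were other pseudocounts (0.1, 0.5) and filters (none, a 5 FPKM mean), scaling by median of ratios, quantiles or equal totals, the compared groups alone, the replicate number as a block, and each library left out. Coordinates, transcripts and overlaps came from GENCODE M21 on GRCm38, and promoters from RefSeq. Tables and figures used Python 3.11.15 with matplotlib 3.10.9, SciPy 1.17.1, NumPy 2.4.6 and pandas 2.3.3.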

Additional observations from a re-analysis of the deposited data

Results flagged for a closer look

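For Csf3, Lif, Hnrnpd, Sdc1 and Il1r1, all libraries of shRNA3 lay below both WT libraries and all of shRNA1 above them. For Csf3 the difference of shRNA3 minus shRNA1 was -2.27 on the log2 scale, and it was not tested, since the gene was chosen with its values known. For the other 4, of which Hnrnpd was not called with shRNA1 against WT (adjusted p = 0.272), the difference between the hairpins passed the limma test: Lif at -1.03 (adjusted p = 4.09e-05), Hnrnpd at -0.84 (3.65e-05), Sdc1 at -0.46 (9.70e-04) and Il1r1 at -0.44 (8.18e-04). Il1rap lay on the same sides, but its difference between the hairpins missed the threshold (limma adjusted p = 0.0748), and Jak1 was called lower with shRNA3 and higher with shRNA1.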

How the results depend on the processing

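The signs of the differences of Csf1, Csf2, Csf3 and Il33 held in all 3 comparisons under every alternative that gave a value (14 or 15), as did those of Kitl with shRNA3 against WT and against shRNA1. Il1a was under the filter, so only the fit with no filter gave it a value. Kitl with shRNA1 against WT (-0.04) ranged from -0.13 to 0.05, and Il34 with shRNA3 against WT (0.07) from -0.02 to 0.15. Il34 between the hairpins ranged from -0.09 to 0.08. Leaving out each library gave 2604 to 3682 called genes for shRNA1 against WT, 4830 to 5992 for shRNA3 against WT and 3222 to 4592 between the hairpins, and 24 to 30, 33 to 40 and 28 to 36 called genes of the lists. The lowest value of shRNA1 against WT was that without shRNA1 replicate 2. Of 33 list calls with shRNA1, 39 with shRNA3 and 37 between the hairpins, 20, 28 and 26 held under all alternatives, and the cause of the losses was not tested. The replicate numbers are not stated to pair libraries, and their deviations correlated at 0.01 (shRNA1 and WT), -0.07 (shRNA3 and WT) and 0.20 (shRNA3 and shRNA1) across genes. With the replicate number as a block, 31, 39 and 33 genes of the lists were called, and 3523, 5797 and 4308 of all genes. Depth limits Csf2 and Il1a, which rest on 27 and 3 fragments with shRNA3.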

Other observations

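Il1b, the other classical IL-1 gene, was under the filter like Il1a and was picked after its values were seen. It was at 0.156 and 0.061 FPKM with shRNA3, 0.346 and 0.632 with shRNA1, and 0.548 and 0.388 in WT, with the shRNA3 libraries the lowest. Il6, also under the filter and picked in the same way, was at 0.531 and 1.17 FPKM with shRNA3, 1.69 and 1.29 with shRNA1, and 0.419 and 0.212 in WT. The shRNA1 libraries were the highest, and all hairpin libraries lay above WT. Vegfa, a growth factor of vessels that also attracts myeloid cells, was at 120 and 117 FPKM with shRNA3, 122 and 123 with shRNA1, and 75.2 and 74.7 in WT. Both hairpin groups lay above WT.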
